A study of Arabidopsis thaliana with 4 samples.

Results

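The 1629 tiles described here are the probes of array plates TA01 to TA17 that carry a value, out of 21685 tiles with a value on the whole array. They were chosen by identifier alone: plate set TA, plate number 01 to 17, row A to H and column 01 to 12, taken in the order of plate, row and column. The end of the stretch was placed with the plate profile known, ahead of a group of plates with few high ratios. The array measured trimethylation of lysine 36 on histone H3 (H3K36me3) in untreated seedlings of Arabidopsis thaliana, ecotype Col-0, labelled as 10 days old, with the antibody Abcam ab9050. Each array set chromatin immunoprecipitate (ChIP) DNA against input DNA of the same chromatin in the other dye. There were 2 extract pairs, numbered I and II in the labels and called replicates 1 and 2 here, each hybridised on 2 arrays with the dyes exchanged. The labels do not say whether separate cultures lie behind the pairs, and p-values below therefore reflect the spread of 2 extract pairs alone, possibly a technical one. The seedlings were whole plants of mixed cell types, so a tile marked strongly in some cells and one marked weakly in all cells cannot be told apart.

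H3K36me3 is placed on nucleosomes behind transcribing RNA polymerase II and is known in plants as a mark of the bodies of active genes. In Arabidopsis the methyltransferase SDG8 (ASHH2) deposits much of it, and loss of that enzyme alters flowering time through the repressor gene FLC. Silent heterochromatin rich in transposons is known to lack the mark. No table used here pairs the tile identifiers with genes, sequences or positions, so no gene is named and no sequence is shown.

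The values are log ratios as the authors deposited them. Neither its logarithm base nor its direction, ChIP over input or input over ChIP, is stated in the sources used here. High and low therefore refer to the deposited ratio, and if it runs input over ChIP every such word is exchanged for the mark. Both arrays of a dye-swap pair held the same values at every tile, so each pair was counted once and n = 2. All values below, unless called deposited, are log ratios minus the median over all tiles of that replicate, which was -1.22 in replicate 1 and -1.10 in replicate 2. A value of 0 is thus the middle of the array, not the absence of the mark. Of the 1632 wells on the 17 plates, 3 gave no value here: TA11H03 is listed without one, and TA17C03 and TA17E06 are not among the identifiers used here.

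The stretch held many tiles with high ratios, set in short blocks between low tiles. In replicate 1 its tiles ran from -2.19 to 3.57 with a median of 0.26, and in replicate 2 from -2.38 to 3.21 with a median of 0.21. Over the stretch replicate 1 averaged 0.66 and replicate 2 averaged 0.56, against 0.40 and 0.38 over the 20056 other tiles. The stretch thus lay above the other tiles by 0.26 in replicate 1 and by 0.18 in replicate 2. With 2 replicates an exact sign-flip test cannot give a p below 0.5, so this difference was not tested. The SD over the tiles of the stretch was 1.16 in replicate 1 and 1.08 in replicate 2.

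Each tile was tested against the array median with limma across all 21685 tiles (two-sided, Benjamini-Hochberg adjusted p under 0.05). In the stretch 772 of 1629 tiles (47.4%) were called above the median, against 38.9% of all tiles on the array. A further 391 (24.0%) were called below it, against 32.3% of all tiles, and 466 (28.6%) did not pass. All 1163 called tiles of the stretch had the same sign in both replicates. On the whole array 8445 tiles were called above and 6995 below, and 15429 of them had the same sign in both. A call needs a mean away from 0, which by itself makes a shared sign likely. The smallest called means were 0.31 above and -0.31 below. These shares were tallied from single-tile tests, and the shift between the stretch and the array was not itself tested.

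A mixture model of 2 normal components, fitted to the means of all tiles, also sorted the tiles into classes. A tile was called upper where its posterior probability of the high component exceeded 0.99. The stretch held 568 upper tiles (34.9%), against 28.3% on the whole array and 27.8% among the other tiles. It held 909 lower tiles (55.8%) and 152 tiles between (9.33%), against 64.5% and 7.76% among the other tiles. The upper tiles of the stretch averaged 1.96 ± 0.57 (SD over tiles), and those elsewhere averaged 1.94 ± 0.57. The same cut-off chose the upper tiles in both sets, which keeps their mean heights alike, so the heights are given as a description. Its lower tiles averaged -0.24 in replicate 1 and -0.26 in replicate 2, against -0.34 and -0.29 elsewhere. Among the upper tiles, 18 tiles on 10 plates exceeded a mean of 3, which is 1.10% of the stretch, against 0.683% of the other tiles.

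Of 4 other stretches set beside TA01 to TA17, plates TB00 to TB49 came closest in upper share. The upper share was 34.9% here, against 32.5% on plates TB00 to TB49 and 41.1% on TB50 to TB99. It was 22.9% on plates TA52 to TA99 and 13.3% on TA18 to TA29, which follow directly. The stretch was ended ahead of plates with few high ratios, so its gap to TA18 to TA29 follows from that choice. Plate TA18 itself still held 39.6%. The mean ratio followed the same order, with 0.61 here, 0.54 on TB00 to TB49, 0.79 on TB50 to TB99, 0.31 on TA52 to TA99 and -0.13 on TA18 to TA29. These differences were not tested.

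**Figure D1:**
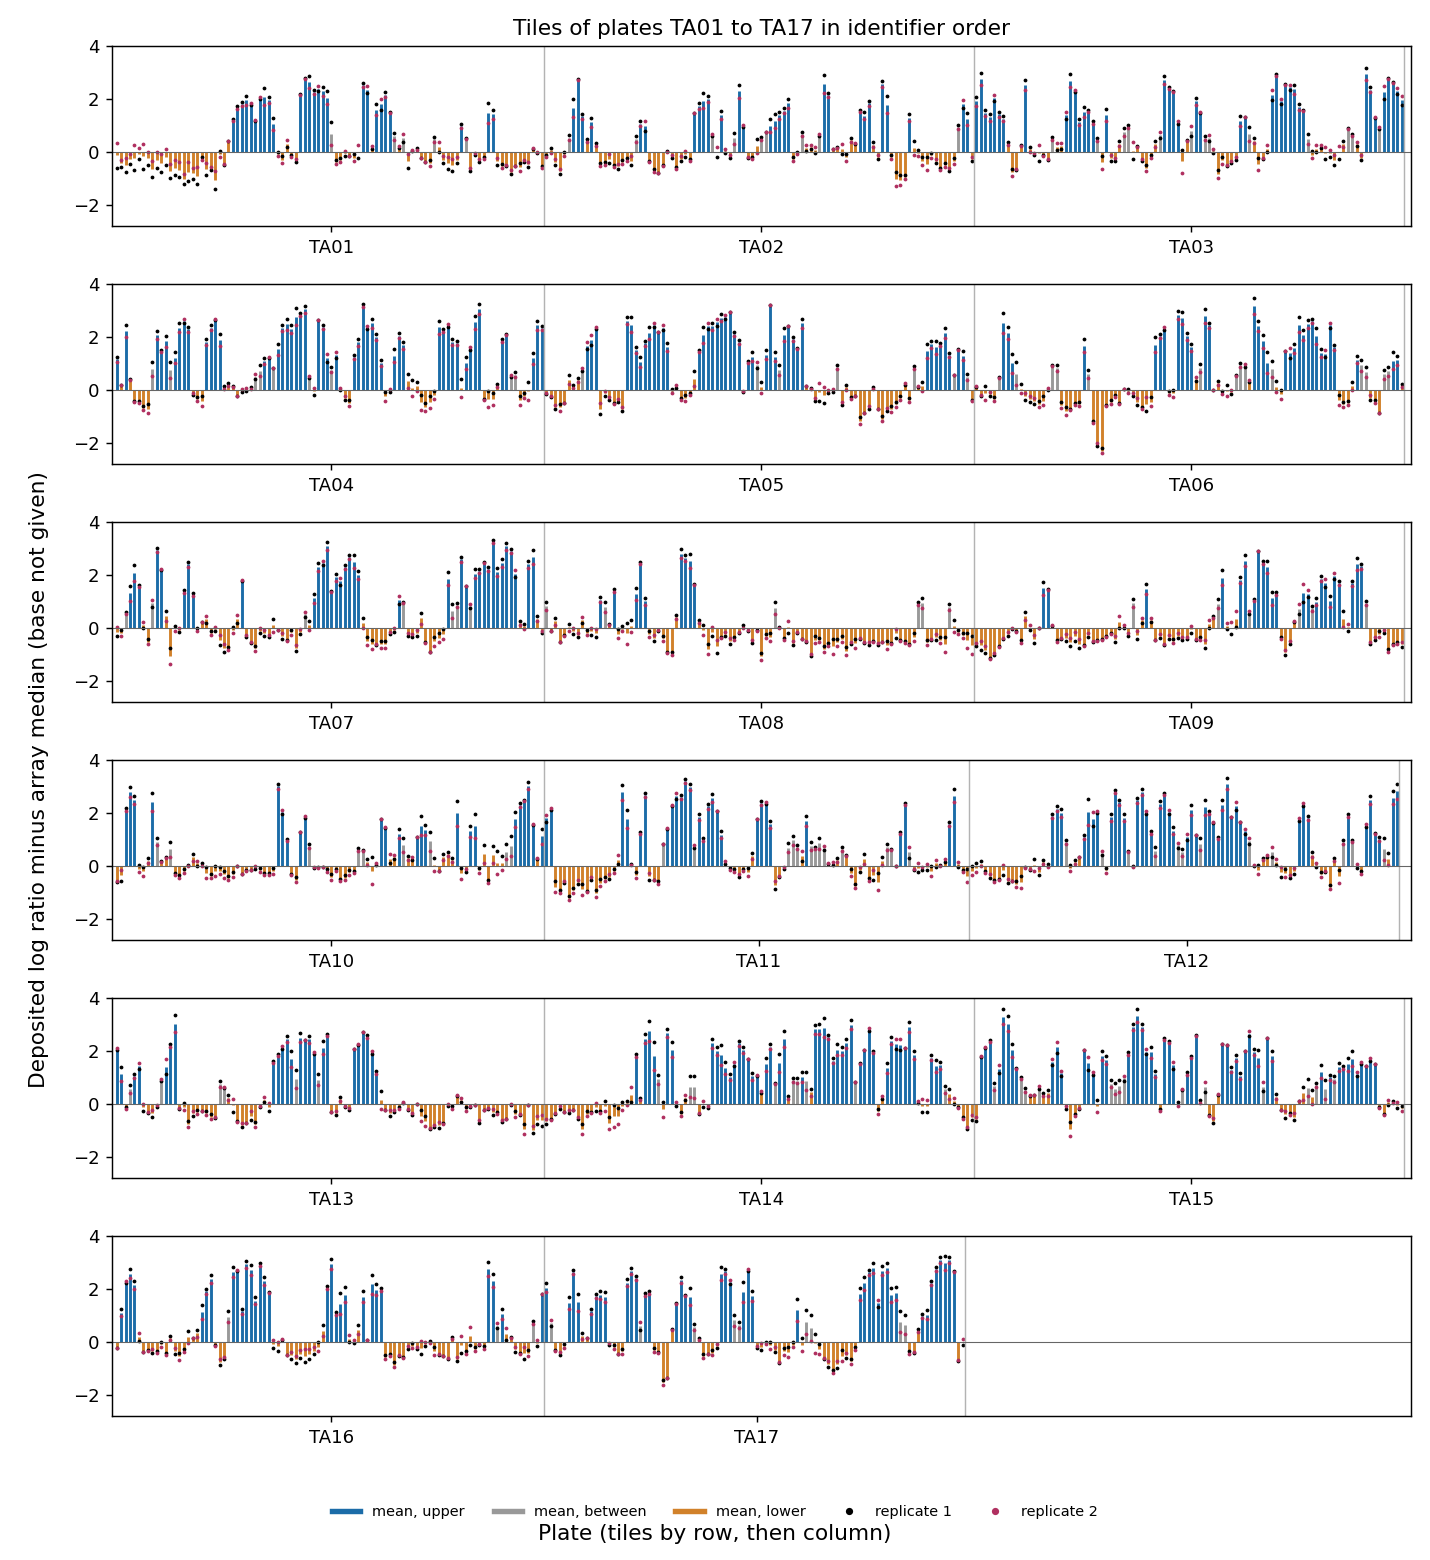
Log ratio minus the array median for each of the 1629 tiles of plates TA01 to TA17, in the order of plate, row and column. Bars give the mean of both replicates (blue upper, grey between, orange lower) and points give each replicate; blocks of high tiles alternate with low tiles, with a long low interval from TA08 into TA09 and another from TA13 into TA14.

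The share of upper tiles varied from plate to plate, with a median of 33.3% over the 17 plates. It exceeded 40% on 7 plates, lay between 20% and 40% on 9 and was below 20% on 1. The highest share was on TA15, with 51 of 96 tiles (53.1%), or 47 of 96 from replicate 1 alone and 48 from replicate 2 alone. TA04 followed with 50 of 96 (52.1%), or 48 from replicate 1 and 44 from replicate 2. TA14 had 45 of 96 (46.9%), or 45 from replicate 1 and 42 from replicate 2. TA15 and TA04 lay no further apart than the replicates of TA04. The order of the top plates depends on the definition: with the uppermost of 3 mixture components TA04 was highest at 31.2% and TA15 was at 22.9%.

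TA08 stood lowest, with 9 upper tiles of 96 (9.38%), or 9 from replicate 1 alone and 6 from replicate 2 alone. It was also the lowest plate under the other definitions tried, with 4.17% to 16.7%. Its mean ratio was -0.02 in replicate 1 and -0.13 in replicate 2, the only plate of the 17 below 0 in either. TA09 had 23 of 96 upper tiles, or 21 from replicate 1 and 19 from replicate 2. TA10 had 24 of 96, as did TA13. TA08 and TA15 were picked as the plates with the lowest and highest share, so the gap between them is a description. The mean over upper tiles of a plate, all chosen by the same cut-off, ran from 1.64 on TA02 to 2.15 on TA07. Every plate held at least 1 tile above 2.7, the lowest of the 17 plate maxima being 2.73.

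**Figure D2:**
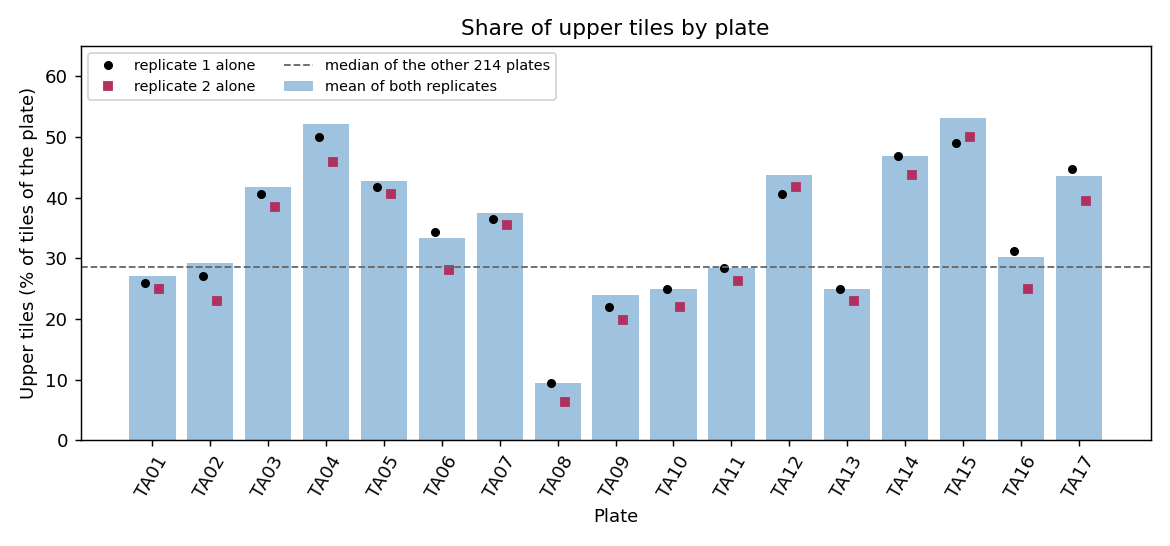
Share of upper tiles on each of the plates TA01 to TA17, in percent of the tiles of the plate. Bars use the mean of both replicates, points use each replicate alone with a mixture fitted to it, and the dashed line is the median over the other 214 plates (28.6%); TA08 sits far below the rest and TA04 and TA15 are highest.

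Upper tiles came in blocks. Along the identifier order they formed 160 runs of consecutive tiles with a mean length of 3.55 and a median of 3, against 3.48 and 3 among the other tiles. The stretch held 9.82 runs per 100 tiles, against 7.98 elsewhere, so its larger upper share lay in more runs of about the same length. Runs of 1 tile numbered 29 and held 5.11% of the upper tiles, against 5.71% elsewhere. There were 38 runs of 2 tiles, 36 of 3 and 21 of 4. The 36 runs of 5 or more tiles held 271 upper tiles, or 47.7%. An upper tile was followed by another upper tile in 71.8% of cases, and a tile of another class was followed by an upper tile in 15.1%. Longer runs were also higher: run means averaged 1.51 ± 0.44 for runs of 1 tile, 1.84 ± 0.46 for 2 tiles, 1.95 ± 0.27 for 3 or 4 tiles and 2.03 ± 0.30 for 5 or more (SD over runs). Both replicates gave this order, with 1.67, 1.95, 2.05 and 2.12 in replicate 1 and 1.35, 1.72, 1.86 and 1.94 in replicate 2. The same replicate values chose the runs, so the order is a description.

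The longest run held 12 tiles, from TA06F10 to TA06G09. It averaged 1.99 in replicate 1 and 1.83 in replicate 2, with single tiles between 1.38 at TA06G07 and 2.60 at TA06G04. The tile TA06G07 lay in a dip inside the run, before 2.44 at TA06G08. All 12 tiles were also upper in each replicate alone. The run from TA07D09 to TA07E07 held 11 tiles, averaging 2.23 in replicate 1 and 2.05 in replicate 2. Its values formed a pair of peaks, 3.10 at TA07D12 and 2.69 at TA07E05, with a dip to 1.37 at TA07E01 between them. The run from TA14D02 to TA14D12 also held 11 tiles and was lower, at 1.76 in replicate 1 and 1.53 in replicate 2. It too dipped inside, to 1.02 at TA14D06 between 2.29 at TA14D02 and 2.29 at TA14D08. Such dips were seen in both replicates: at TA14D06 replicate 1 gave 1.13 and replicate 2 gave 0.90.

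There were 5 runs of 10 tiles. The run from TA01C03 to TA01C12 averaged 1.77 in replicate 1 and 1.59 in replicate 2, and its highest tile, TA01C10, reached 2.08. Before that it dipped from 1.95 at TA01C06 to 1.19 at TA01C08. The run from TA05B07 to TA05C04 averaged 2.12 in replicate 1 and 1.91 in replicate 2. It fell inside to 1.06 at TA05B10, between 2.61 at TA05B07 and 2.43 at TA05C01. The run from TA05C11 to TA05D08 averaged 2.37 in replicate 1 and 2.28 in replicate 2 and had no such dip, with 1.48 at its start, a top of 2.93 at TA05D06 and 1.81 at its end. The run from TA07G09 to TA07H06 averaged 2.54 in replicate 1 and 2.40 in replicate 2, and no tile of it fell below 2.04. It still dipped to 2.10 at TA07H02, between 3.26 at TA07H01 and 3.08 at TA07H04. The run from TA12E05 to TA12F02 averaged 1.98 in replicate 1 and 1.89 in replicate 2, with a dip to 1.05 at TA12E08 before its top of 3.10 at TA12E10. Of these longest runs, only the one from TA05C11 to TA05D08 rose and fell without a dip inside. Whether each spans 1 gene or several was not tested, since tiles are not paired with genes here.

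**Figure D3:**
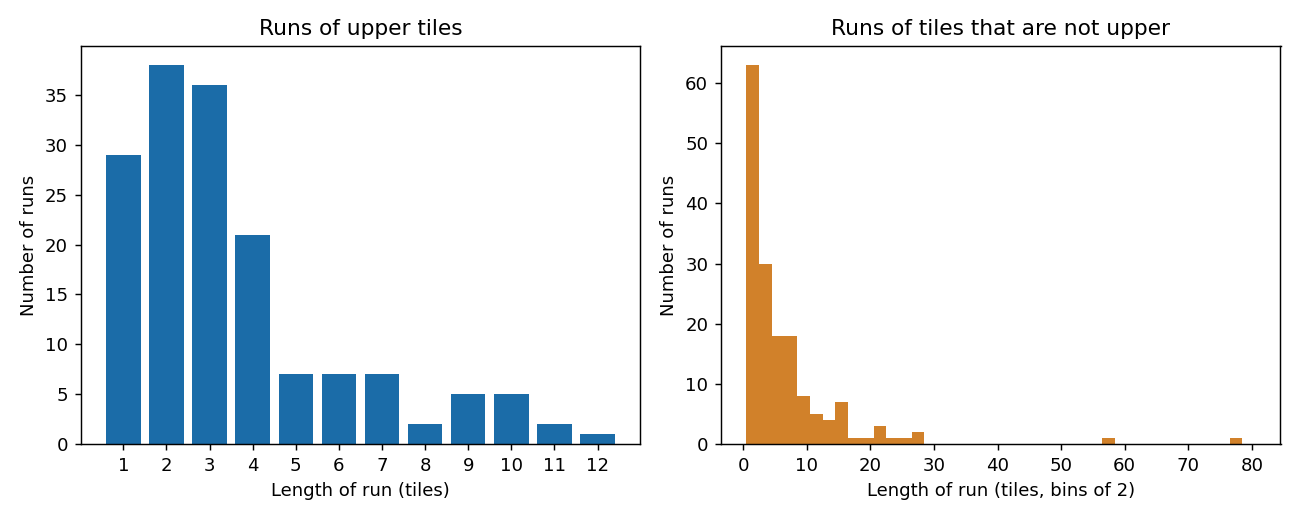
Number of runs of consecutive upper tiles by length in tiles (left) and of runs of tiles that are not upper (right, bins of 2 tiles) on plates TA01 to TA17. Most upper runs have 1 to 4 tiles and the longest has 12; of the runs that are not upper, 2 stand apart at 57 and 77 tiles.

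The tiles that were not upper formed 164 runs with a median length of 4, and 105 of them held 5 tiles or fewer. The longest were far from this median. From TA08C11 to TA09B03, 77 consecutive tiles held no upper tile in the replicate mean or in either replicate alone. They averaged -0.32 ± 0.43 in replicate 1 and -0.39 ± 0.41 in replicate 2 (SD over tiles). The test called 51 of these 77 tiles (66.2%) below the array median and 5 above it, against 32.3% and 38.9% of all tiles. The interval was picked for holding no upper tile, which by itself raises the share called below. The lower component of the mixture had a mean of -0.31. The interval thus lay near the centre of the lower population, and a call below does not place a tile beneath that population. The highest tile of the interval was TA08H01, at 0.95. Inside it lay the longest run of called low tiles in the stretch, 21 tiles from TA08E10 to TA08G06, at -0.53 in replicate 1 and -0.64 in replicate 2.

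From TA13E12 to TA14B08 a further 57 tiles were all in the lower population. They averaged -0.32 ± 0.33 in replicate 1 and -0.36 ± 0.35 in replicate 2 (SD over tiles). Of them 29 (50.9%) were called below and 2 above, against 32.3% and 38.9% of all tiles. In the whole stretch 391 of 909 lower tiles were called below. On the whole array 6995 tiles were called below and 13839 were lower. The share in this interval was thus close to that among lower tiles of the array. The next longest were 2 intervals of 27 tiles. The one from TA05E11 to TA05H01 averaged -0.23 in replicate 1 and -0.24 in replicate 2, and held 2 tiles of the class between, up to 0.87 at TA05F06. The one from TA10A10 to TA10C12 averaged -0.01 in replicate 1 and -0.15 in replicate 2. In all, 9 intervals of over 20 tiles held 300 tiles, or 28.3% of the tiles that were not upper. The low ratios of the stretch were thus partly gathered in a few long intervals, and mostly spread between blocks of high tiles.

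Of the 320 run ends, 203 (63.4%) lay next to a lower tile and 117 (36.6%) next to a tile of the class between. Among all 1061 tiles that were not upper, 152 were between, a smaller share than beside run ends. The largest step between neighbours was 3.41, where TA04G10 had 3.26 in replicate 1 and 2.85 in replicate 2 and TA04G11 had -0.32 and -0.39. This pair was picked after the values were seen. Of 1625 pairs of consecutive tiles, 74 differed by more than 2, and the median step was 0.39. Of the 152 tiles of the class between, 73 had 1 upper neighbour, 22 had an upper neighbour on both sides and 57 had none.

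To measure the blocks apart from the values that chose them, runs of 5 or more upper tiles were chosen in 1 replicate and read in the other. The 34 runs chosen in replicate 1 averaged 2.10 ± 0.37 on their inner tiles in replicate 2, and 1.63 ± 0.39 on their end tiles (SD over runs). The inner tiles were higher in 28 of 34 runs. The 28 runs chosen in replicate 2 averaged 2.37 ± 0.35 on their inner tiles in replicate 1, and 1.93 ± 0.41 on their end tiles, with the inner tiles higher in 25 of 28. The tile just outside the run averaged 0.27 before it and 0.24 after it in replicate 2, and 0.52 and 0.45 in replicate 1. The ends are set by the cut-off, and neighbouring tiles share the array and may share DNA, so the gradient is given as a description. The leading part of a run minus its trailing part averaged 0.09 ± 0.58 over 34 runs in replicate 2 and 0.06 ± 0.48 over 28 runs in replicate 1 (SD over runs). The leading part was higher in 16 of 34 and 15 of 28. The identifiers carry no gene orientation.

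**Figure D4:**
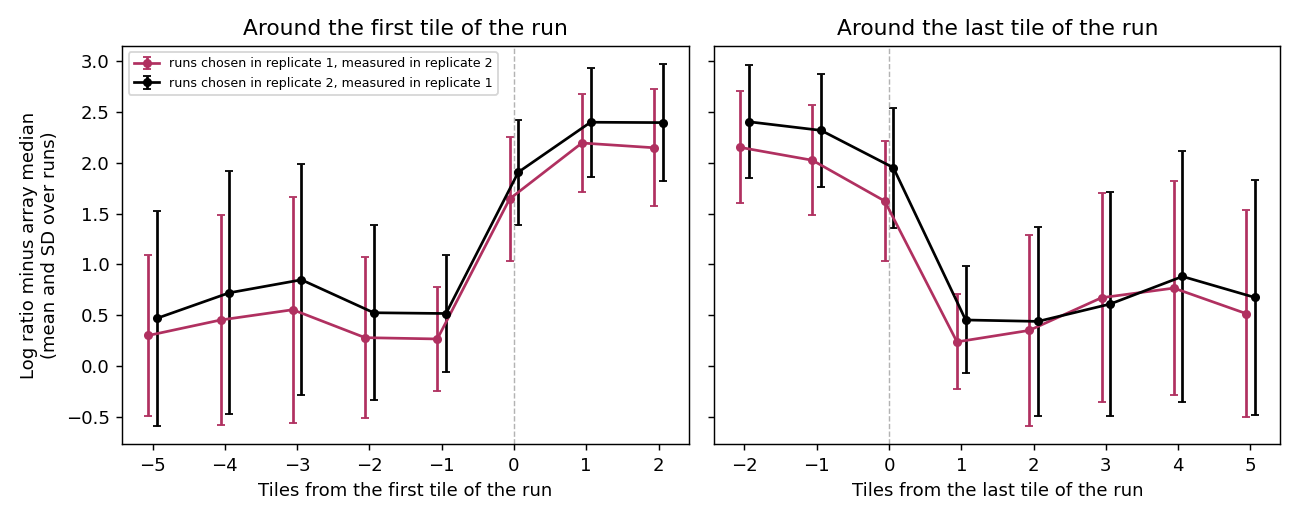
Mean log ratio minus the array median around the first tile (left) and the last tile (right) of runs of 5 or more upper tiles on plates TA01 to TA17, by distance in tiles; error bars are the SD over runs. Runs were chosen in 1 replicate and measured in the other (34 runs chosen in replicate 1, 28 in replicate 2): ratios are lower on the end tile than inside and fall to under 0.6 on the next tile outside.

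The highest tile of the stretch was TA15D01, with 3.57 in replicate 1 and 3.08 in replicate 2. Its mean of 3.32 ± 0.35 (SD, n = 2) had a limma standard error of 0.147 and an adjusted p of 5.91e-15. It stood at the top of a smooth peak, with 2.89 at TA15C12 before it and 2.90 at TA15D02 after it, and 1.89 and 1.96 a further tile out. TA15A07 followed with 3.57 in replicate 1 and 3.01 in replicate 2, a mean of 3.29 ± 0.39 (SD, n = 2; limma adjusted p = 5.91e-15). Its peak was uneven, with 1.30 at TA15A06 before it and 3.03 at TA15A08 after it. Both lay on TA15, the plate with the largest upper share.

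The lowest tiles lay side by side. TA06C05 had -2.19 in replicate 1 and -2.38 in replicate 2, a mean of -2.29 ± 0.14 (SD, n = 2; limma adjusted p = 1.62e-13). TA06C04 beside it had -2.11 in replicate 1 and -1.995 in replicate 2, a mean of -2.05 ± 0.08 (SD, n = 2; limma adjusted p = 1.07e-12). TA06C03 had -1.16 and -1.25, and TA06C06 on the other side -0.56 and -0.62. This low was steep on 1 side: TA06C01, 2 tiles before TA06C03, was an upper tile at 1.91 in replicate 1 and 1.41 in replicate 2. The limma p-values of these 4 tiles rest mostly on the spread over all tiles.

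Very low tiles were few in the stretch. A mean below -1 was found at 18 tiles (1.10%), against 1.63% of the other tiles, on 9 of the 17 plates. The share was smaller on plates TB00 to TB49 (0.917%) and TB50 to TB99 (0.46%). It was larger on TA52 to TA99 (1.68%) and TA18 to TA29 (4.4%). None of the 18 had a measured upper tile directly beside it. Most lower tiles share this, since only 203 run ends lay next to one of the 909 lower tiles of the stretch. Of the 18 tiles, 11 stood alone, 4 lay in pairs and 3 formed the group from TA06C03 to TA06C05. A second deep low, chosen after its values were seen, was the pair TA17C04 and TA17C05. TA17C04 had -1.44 in replicate 1 and -1.63 in replicate 2, and TA17C05 had -1.35 in each. The well before them, TA17C03, has no value here, so whether an upper tile lies on that side is unknown. Below -1.5 there were 3 of the 1629 tiles in the stretch, TA06C05, TA06C04 and TA17C04. Elsewhere it was 11 of the 20056 other tiles, a smaller share, whereas at the cut of -1 the share elsewhere was the larger. TA06C05 and TA06C04 are neighbours, so the 3 tiles are not 3 separate places.

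The first tile of the stretch, TA01A01, had -0.58 in replicate 1 and 0.34 in replicate 2. The last, TA17H12, had -0.11 and 0.09, and the next tile outside, TA18A01, had 0.22 and -0.13. None of these passed the test (limma adjusted p = 0.52, 0.96 and 0.79). The boundary after TA17 was not a break in level, since plate TA18 still held 39.6% upper tiles, with a mean of 0.84 in replicate 1 and 0.70 in replicate 2. TA17 itself held 43.6%, with 0.91 and 0.71.

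The replicates gave nearly the same profile over the stretch, with a Pearson r of 0.972 and a Spearman rho of 0.951 over 1629 tiles, which are not independent. Among the other tiles r was 0.968 and rho 0.928. Replicate 1 minus replicate 2 varied over tiles with an SD of 0.276, against 0.299 elsewhere. It exceeded 1 in size at 2 tiles, TA10E10 with 0.32 in replicate 1 and -0.68 in replicate 2, and TA14C01 with 2.32 and 1.28, both named after their values were seen. With the mixture fitted to each replicate alone, replicate 1 put 554 tiles of the stretch in the upper class and replicate 2 put 511 there. Both lists held 497 of them, which is 89.7% of the list from replicate 1 and 97.3% of that from replicate 2. Tiles chosen as upper in replicate 1 averaged 1.87 ± 0.59 in replicate 2, and those chosen in replicate 2 averaged 2.14 ± 0.56 in replicate 1 (SD over tiles). The lowest single values among them in the other replicate were 0.30 in replicate 2 and 0.81 in replicate 1, so no upper tile of either list fell below the array median in the other.

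The replicates parted at the start of the stretch. Over the opening 26 tiles, TA01A01 to TA01C02, replicate 1 averaged -0.68 ± 0.40 and replicate 2 averaged -0.21 ± 0.34 (SD over tiles). Replicate 1 was the lower at 23 of 26 tiles. Over the 8 tiles TA10G10 to TA10H05 the replicates parted further and the other way, with 0.47 in replicate 1 and -0.06 in replicate 2. Both intervals were chosen after their values were seen. The difference of -0.46 over the opening tiles remained -0.40 after quantile normalization, which gives both replicates the same distribution of values. Over the later lower tiles of the stretch, 883 in number, replicate 1 lay 0.04 above replicate 2. Over the low intervals of 77 and 57 tiles replicate 1 lay 0.07 and 0.04 above replicate 2. Of the 2 intervals of 27 tiles, the one on TA05 differed by 0.005 and the one on TA10 had -0.01 in replicate 1 and -0.15 in replicate 2. TA01 was accordingly the plate with the most negative mean difference, at -0.10, and replicate 1 had the higher mean on 15 of the 17 plates, by up to 0.21 on TA10. What set the opening tiles apart was not tested.

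Neighbouring tiles had similar ratios, and in this stretch the likeness faded within about 10 tiles. Over 1625 pairs of consecutive tiles Pearson r was 0.694, and it was 0.402 at 2 identifiers apart, 0.196 at 5, 0.075 at 10 and -0.0023 at 96. Among the other tiles it was 0.733 for consecutive tiles, 0.240 at 10 and 0.150 at 96. With the 2 tiles of a pair read in different replicates, r was 0.681 for replicate 1 followed by replicate 2 and 0.681 the other way round. The difference between replicates was itself correlated between consecutive tiles, with r = 0.324, against 0.440 elsewhere. It was 0.0475 at 20 identifiers apart, against 0.226 elsewhere. The other tiles pool stretches of unlike mean ratio, such as -0.13 on TA18 to TA29 and 0.79 on TB50 to TB99. No r is given for any of those stretches alone, so whether the faster fading is particular to this stretch was not tested. All values of r are descriptions over pairs of tiles that share plates and arrays, and the differences between the stretch and the rest were not tested.

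**Figure D5:**
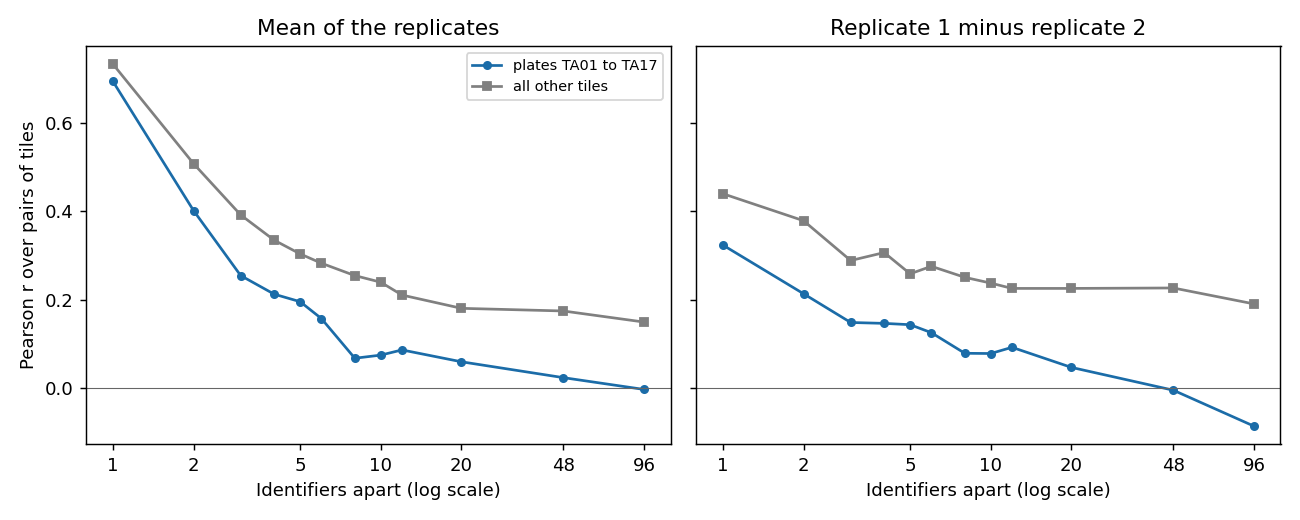
Pearson r between tiles a given number of identifiers apart (log axis) for the mean of both replicates (left) and for replicate 1 minus replicate 2 (right), on plates TA01 to TA17 and over all other tiles. In both panels the curve of the stretch lies below that of the other tiles at every distance shown, and is near 0 at 48 identifiers.

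The position of a tile on its plate went with its ratio by row but little by column. Over the 17 plates the upper share was 49.5% in row D and 40.9% in row E, and 27.0% in rows B and F. Row D averaged 1.04 in replicate 1 and 0.95 in replicate 2, against 0.41 and 0.33 in row B. Among the other tiles the share by row lay between 25.3% and 30.4%. By column it ran from 33.1% to 37.5% in the stretch. The lower tiles averaged -0.22 in row D and -0.26 in row B, and over all rows from -0.29 in row A to -0.16 in row E. Among the other tiles they ran from -0.34 in row A to -0.30 in row D. A row of 12 tiles is about as long as the longest runs, and each row was seen on 17 plates only. These differences between rows were not tested. From column 12 of a row to column 1 of the next, which lie at opposite ends of a plate, r was 0.576 over 119 pairs, against 0.704 over 1490 pairs inside rows.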

How the data were processed

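The authors deposited 1 log ratio per probe and array, a score. Its logarithm base, direction, normalization, background correction and genome build are not stated in the sources used here. Of 21800 identifiers, 21685 have a value in all 4 columns. The ChIP and input dyes come from the labels. Both columns of a dye-swap pair are identical, so 1 per pair was used (n = 2). The number of arrays limits the precision. Each replicate was centred on its median over all tiles. For the test against 0, limma 3.58.1 (R 4.3.3; lmFit and eBayes, two-sided, Benjamini-Hochberg over all tiles) was fitted to both replicates, with 1 residual and 23.1 prior degrees of freedom. The code of the test was checked on simulated independent tiles, few of them away from 0. The real tiles are correlated and most were called, so the check gives no rate of false calls here. Mixtures used scikit-learn 1.9.0. A run is broken by a tile of another class or an absent identifier. Tiles were named by rule: the 2 highest and 2 lowest, the tiles at the boundary, the 5 longest upper runs, the 3 longest runs that were not upper, and the 3 plates with the highest and the 3 with the lowest upper share (ties in identifier order; the other tied runs were added after their values were seen). The stretch and these choices were made with earlier results of these data known.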

Additional observations from a re-analysis of the deposited data

How the results depend on the processing

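Quantile normalization, trend and robust eBayes settings and a threshold of 0.01 moved neither count of called tiles by over 1.5 times. Uncentred ratios gave 423 tiles of the stretch above 0 and 1024 below. With treat and a minimum size of 0.5, 44 tiles were called below, and 614 above. Turning every sign exchanges the counts, to 391 above and 772 below. The upper share was 44.2% with a posterior above 0.5, 18.9% with the uppermost of 3 components, 47.4% with limma calls above, and 31.4% to 34.0% in single replicates. In the same settings the mean run length was 4.42, 2.32, 4.65 and 3.21 to 3.44. The longest upper run reached 26 tiles with a posterior above 0.5 and with limma calls, and the longest run without upper tiles was 118 with 3 components and 38 with limma calls. On TA15 the share was 68.8% with a posterior above 0.5, 22.9% with 3 components and 74.0% with limma calls, and on TA08 it was 15.6%, 4.17% and 16.7%. These lengths and plate shares were examined under alternatives chosen after seeing the data. The mean difference of 0.22 from other tiles was 0.18 to 0.26 in single replicates and 0.51 against the other TA tiles alone. The correlation of consecutive tiles was 0.67 with plate means taken off, 0.709 as Spearman's rho, 0.681 across replicates and 0.687 to 0.691 in single replicates. The correlation of replicates was 0.853 over tiles that are not upper. With every sign turned the named tiles had 2.29 (TA06C05), 2.06 (TA06C04), -3.32 (TA15D01) and -3.29 (TA15A07). Without centring they had -3.45, -3.22, 2.16 and 2.13 in that order. A dye-swap block over 4 arrays was not fitted because the paired columns are identical, and leaving out a replicate leaves the test no residual degree of freedom. No paired analysis was possible because there is a single group.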
